A study of Mus musculus with 2 samples.

Results

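The miR-181 family of the mouse is encoded by 6 hairpin genes in 3 pairs of neighbours: Mir181a-1 with Mir181b-1, Mir181a-2 with Mir181b-2, and Mir181c with Mir181d. The 6 genes were taken by symbol, through the GENCODE M21 annotation, from tables of 2202 microRNA genes, and all 6 were found in both tables. The tables come from microRNA-seq of adrenal gland tissue of wild-type C57BL/6J mice, supplied by The Jackson Laboratory, in 2 libraries of a single group, which carry the numbers 2 and 1 as biological replicates. A label names the animals as female while another records the sex as not collected, the age is given as unknown, and the libraries carry their own tissue sample identifiers with the same donor identifier. Whether separate animals were used is not stated, so every p-value below describes a difference between these libraries, which may be technical. The tables count microRNA genes, so the steroid-producing enzymes that define the gland were not measured here.

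A microRNA hairpin is cut into a short duplex, and either of its arms, named 5p and 3p, can be loaded into an Argonaute protein. The loaded strand finds target messenger RNAs mainly through its seed, bases 2 to 8 from the 5′ end. The miR-181 family is best known from developing T cells, where miR-181a lowers several phosphatases and so tunes the sensitivity of the antigen receptor, from vascular endothelium, where miR-181b dampens NF-κB signalling, and from brain.

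The 5p arms carry the family's name, and they are shown first because their likeness decides which gene a read can be given to. Sequences are those of RefSeq (GRCm38.p6), written 5′ to 3′ with the seed in capitals. The 6 genes have 4 different 5p arms:
miR-181a-5p: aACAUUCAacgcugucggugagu
miR-181b-5p: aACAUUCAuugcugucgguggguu
miR-181c-5p: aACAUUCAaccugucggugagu
miR-181d-5p: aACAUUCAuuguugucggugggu

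All 4 share the seed ACAUUCA, and no gene outside the family had a mature arm with this seed among 1738 mature entries in the table used. The arm miR-181a-5p is the same in Mir181a-1 and Mir181a-2, and miR-181b-5p is the same in Mir181b-1 and Mir181b-2. The arms of Mir181c and Mir181d are found in no other gene of the table. Counted from 1 at the 5′ end, with the base of the first-named arm first, miR-181b-5p and miR-181d-5p differ by the single substitution C12U. The arms miR-181a-5p and miR-181b-5p differ by A9U, C10U and A21G, and miR-181c-5p can be reached from miR-181a-5p by 1 change, the loss of a base. By the fewest base changes, the a and c arms are therefore nearest to each other, as are the b and d arms.

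The 3p arms are shown because they are what tells apart the genes whose 5p arms are the same. All 6 differ:
miR-181a-1-3p: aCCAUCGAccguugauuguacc
miR-181a-2-3p: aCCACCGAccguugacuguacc
miR-181c-3p: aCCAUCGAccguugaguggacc
miR-181b-1-3p: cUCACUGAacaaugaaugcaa
miR-181b-2-3p: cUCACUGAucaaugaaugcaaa
miR-181d-3p: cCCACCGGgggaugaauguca

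The miR-181a-1-3p and miR-181c-3p arms share a seed and differ by U16G and U19G, while miR-181a-1-3p and miR-181a-2-3p differ by U5C, inside the seed, and U16C. The miR-181b-1-3p and miR-181b-2-3p arms share a seed, with the substitution A9U and 1 more base at the end of miR-181b-2-3p. No gene outside the family held any of these 3p seeds. The deposited tables count reads per hairpin gene, and the split of each gene's reads between 5p and 3p was not measured here.

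The hairpins show how far the copies run together. The genes with repeated 5p arms are given whole, with both mature arms in capitals:
Mir181a-1: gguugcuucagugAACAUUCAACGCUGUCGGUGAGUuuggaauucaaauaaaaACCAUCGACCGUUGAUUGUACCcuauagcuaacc
Mir181a-2: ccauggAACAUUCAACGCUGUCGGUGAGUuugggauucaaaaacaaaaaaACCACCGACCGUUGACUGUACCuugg
Mir181b-1: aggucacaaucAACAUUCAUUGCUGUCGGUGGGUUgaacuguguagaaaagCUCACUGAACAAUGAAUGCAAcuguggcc
Mir181b-2: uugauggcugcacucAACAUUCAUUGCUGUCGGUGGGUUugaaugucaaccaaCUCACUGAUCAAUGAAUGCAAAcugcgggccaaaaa

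The hairpins of Mir181a-1 and Mir181a-2 were identical over 28 bases, made of the 5p arm with 1 base before it and 4 after it. Those of Mir181b-1 and Mir181b-2 were identical over 26 bases, with 2 before the 5p arm and none after it. A miR-181a-5p read that starts at the arm's first base would have to reach 28 bases to match 1 hairpin only. A miR-181b-5p read would have to reach 25, since the next base is g in Mir181b-1 and u in Mir181b-2. Reads that align to several places stood in a row of their own, apart from the genes, and made up 36.0% of all reads in replicate 2 and 35.9% in replicate 1. How many of them are miR-181a-5p or miR-181b-5p was not measured here, so the values of the 4 genes with repeated arms leave out such reads. The counts of Mir181c and Mir181d do not carry this limit, at least for exact copies in the table searched.

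The pairs lie on 3 chromosomes (GENCODE M21 on mm10). Mir181a-1 is at chr1:137966455-137966541 and Mir181b-1 at chr1:137966639-137966718, both on the plus strand and 97 bases apart. They lie in an intron of the processed transcript Gm4258. Mir181b-1 lies wholly inside an exon of the long non-coding RNA A430106G13Rik, which also covers 11 bases of Mir181a-1. The long non-coding RNA gene Gm26936 runs over both on the other strand. Mir181a-2 (chr2:38852735-38852810) and Mir181b-2 (chr2:38853830-38853918) are on the plus strand, 1019 bases apart, and lie opposite introns of Nr6a1, which encodes an orphan nuclear receptor of germ cells. Mir181b-2 also lies opposite an exon of Gm44144, a transcript that the annotation still lists as lacking experimental evidence. Mir181c (chr8:84178873-84178961) and Mir181d (chr8:84178716-84178787) are on the minus strand, 85 bases apart, in an intron and on the strand of Nanos3, an RNA-binding protein gene of germ cells.

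**Figure D1:**
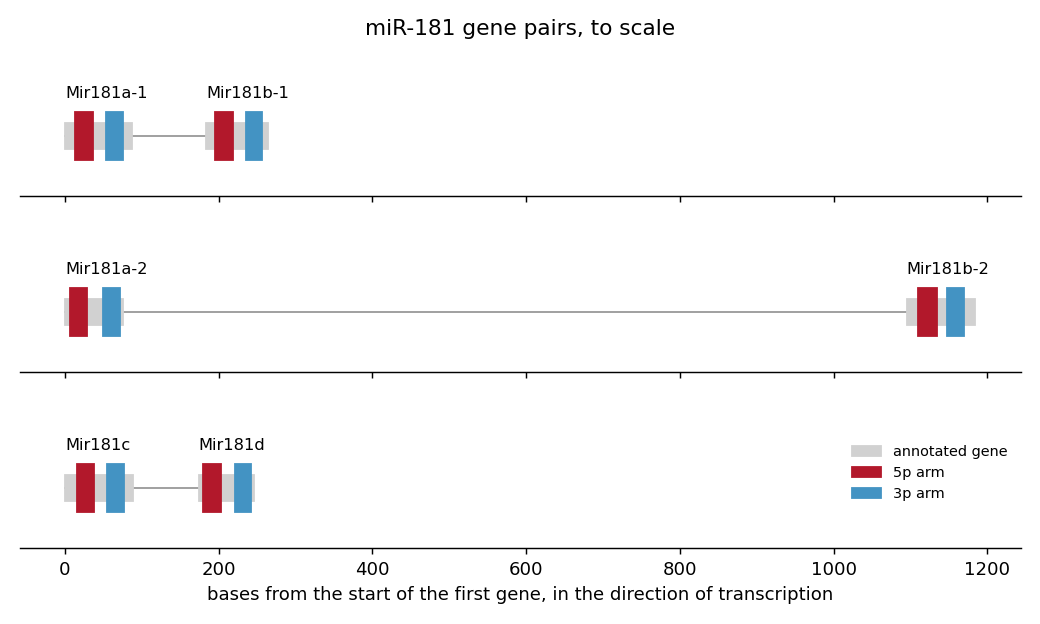
Map of the 3 gene pairs, with bases from the start of the first gene in the direction of transcription on the horizontal axis; grey boxes are annotated genes, red boxes 5p arms and blue boxes 3p arms. Mir181a-1 and Mir181b-1 are 97 bases apart, Mir181c and Mir181d 85, and Mir181a-2 and Mir181b-2 1019.

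The libraries held 6570375 counts on the strand of microRNA genes in replicate 2 and 9137907 in replicate 1. Levels are given as CPM, counts scaled to a total of 1000000 per library, with exact (Clopper-Pearson) 95% intervals, which cover counting error only. Apart from these intervals, the limit for a count of 0 was set at 3 counts. That is 0.457 CPM in replicate 2 and 0.328 CPM in replicate 1. None of the 6 genes was at 0, and none had a count on the opposite strand.

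Mir181d and Mir181c led the family in these counts, and their levels were close to each other in each library. Reads with several alignments are missing from the other 4 genes. How far the RNA of those genes lies from that of this pair was therefore not measured. Mir181d had 4512 counts in replicate 2, or 687 CPM (interval 667 to 707), and 7065 counts in replicate 1, or 773 CPM (755 to 791). Mir181c had 4275 counts in replicate 2, or 651 CPM (631 to 670), and 6758 counts in replicate 1, or 740 CPM (722 to 757). The ranges of both genes over the libraries overlapped. Within a library Mir181d was slightly ahead of Mir181c, 1.06 times in replicate 2 and 1.05 times in replicate 1. Mir181d averaged 730 ± 61.1 CPM and Mir181c 695 ± 62.9 CPM (SD, n = 2), which placed them 92nd and 95th of 2202 genes. For every count of Mir181d there were 0.947 counts of Mir181c in replicate 2 and 0.957 in replicate 1.

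Mir181b-2 came next in these counts, well below that pair. It had 1117 counts in replicate 2, or 170 CPM (interval 160 to 180), and 1302 counts in replicate 1, or 142 CPM (135 to 150). Mir181a-1 had 324 counts in replicate 2, or 49.3 CPM (44.1 to 55.0), and 434 counts in replicate 1, or 47.5 CPM (43.1 to 52.2). These levels were steady between the libraries next to those of Mir181a-2, which had 249 counts in replicate 2, or 37.9 CPM (33.3 to 42.9), and 119 counts in replicate 1, or 13.0 CPM (10.8 to 15.6). Mir181b-1 was the lowest, with 11 counts in replicate 2, or 1.67 CPM (0.836 to 3.0), and 27 counts in replicate 1, or 2.95 CPM (1.95 to 4.30). At so few counts the intervals of Mir181b-1 span more than a doubling.

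By mean CPM, Mir181b-2 stood at 156 ± 19.5 CPM and rank 163, Mir181a-1 at 48.4 ± 1.29 CPM and rank 218, Mir181a-2 at 25.5 ± 17.6 CPM and rank 244, and Mir181b-1 at 2.31 ± 0.905 CPM and rank 374 (SD, n = 2). Apart from Mir181d and Mir181c, no neighbours in this order had overlapping ranges over the libraries. The step between Mir181a-1 and Mir181a-2 was the least even: Mir181a-1 had 1.30 times the level of Mir181a-2 in replicate 2 and 3.65 times in replicate 1. The order of the 6 genes was the same in each library and when CPM was divided by gene length, where it ran from 1014 CPM per 100 bases for Mir181d to 2.89 for Mir181b-1. A microRNA read covers a mature arm rather than the hairpin, so the scale per length is given for comparison only.

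**Figure D2:**
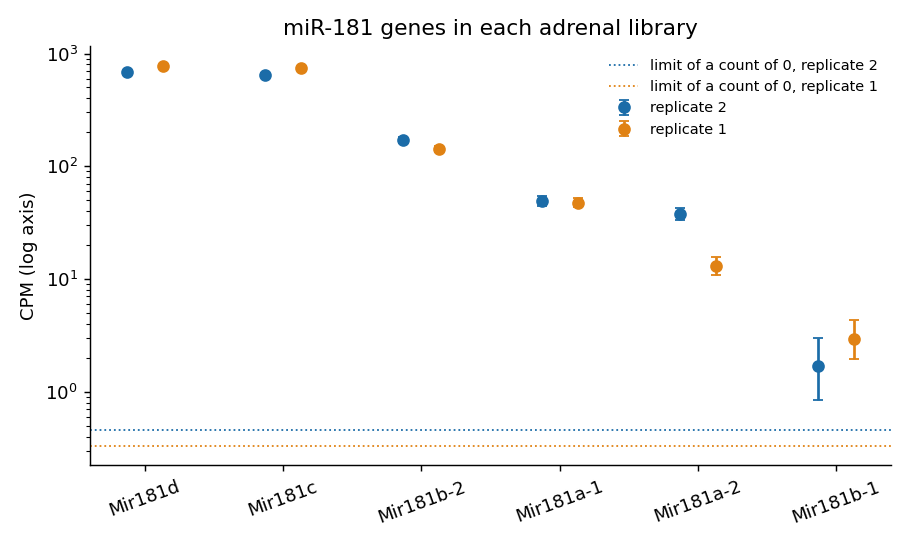
CPM of the 6 miR-181 genes on a log axis, replicate 2 in blue and replicate 1 in orange, with exact 95% counting intervals. Dotted lines mark 3 counts, the limit set for a count of 0. Mir181d and Mir181c sit between 651 and 773 CPM, Mir181b-1 between 1.67 and 2.95 CPM, and Mir181a-2 shows the widest gap between libraries relative to its intervals.

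**Figure D3:**
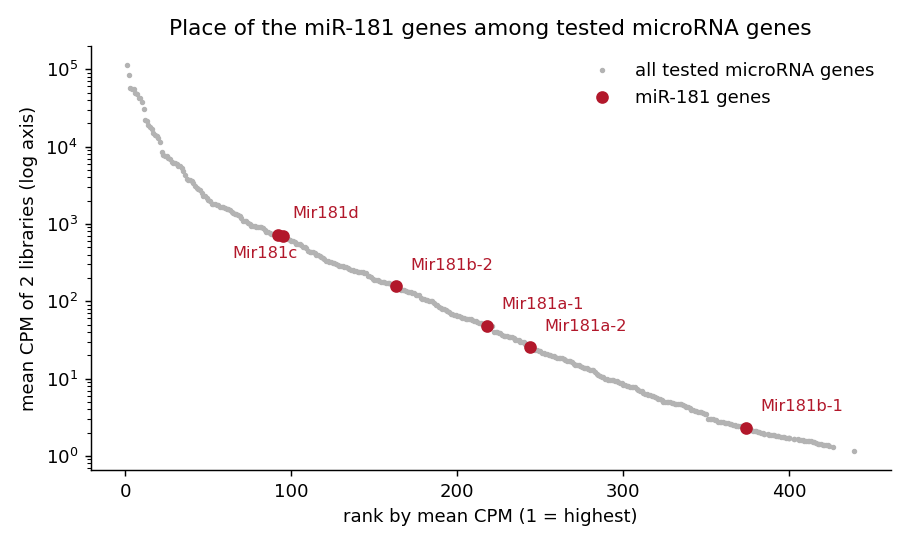
Mean CPM of 2 libraries on a log axis against the rank by mean CPM, with tested microRNA genes in grey and miR-181 genes in red. The family runs from rank 92 (Mir181d) to rank 374 (Mir181b-1). Reads with several alignments are left out, which touches the members with a repeated arm. For the arms of Mir181c and Mir181d no exact copy was found among the mature entries searched.

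Summed over its 6 genes, the family reached 1596 CPM (interval 1566 to 1627) in replicate 2 and 1719 CPM (1692 to 1746) in replicate 1. Mir181c and Mir181d together held 83.8% of the family's counts in replicate 2 (83.1 to 84.5, exact 95% interval) and 88.0% in replicate 1 (87.5 to 88.5). Mir181a-2 and Mir181b-2 held 13.0% in replicate 2 (12.4 to 13.7) and 9.05% in replicate 1 (8.60 to 9.51). Mir181a-1 and Mir181b-1 held 3.19% in replicate 2 (2.87 to 3.55) and 2.94% in replicate 1 (2.68 to 3.21). The chromosome 8 pair thus led in both libraries, and the interval of the chromosome 1 pair was the only 1 of the 3 to overlap between them. These shares leave out reads with several alignments, which touch the chromosome 1 and chromosome 2 pairs.

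The 3 pairs differed in how evenly their genes were counted. Mir181c made up 48.7% of its pair in replicate 2 (47.6 to 49.7) and 48.9% in replicate 1 (48.1 to 49.7), both intervals just under an even split. Mir181a-1 made up 96.7% of its pair in replicate 2 (94.2 to 98.3) and 94.1% in replicate 1 (91.6 to 96.1). The chromosome 2 pair leaned the other way, with Mir181a-2 at 18.2% of it in replicate 2 (16.2 to 20.4) and 8.37% in replicate 1 (6.99 to 9.94). So in these counts the a gene led on chromosome 1 and the b gene on chromosome 2. The a genes have the same 5p arm, as do the b genes, so reads with several alignments are missing from all 4. The limit is unequal for 5p reads that start at the arm's first base. These match 1 hairpin only from 28 bases for the a genes and 25 for the b genes. With bases added before the arm instead, 2 are needed for the a genes and 3 for the b genes. How the RNA itself is split within these 2 pairs was not measured.

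**Figure D4:**
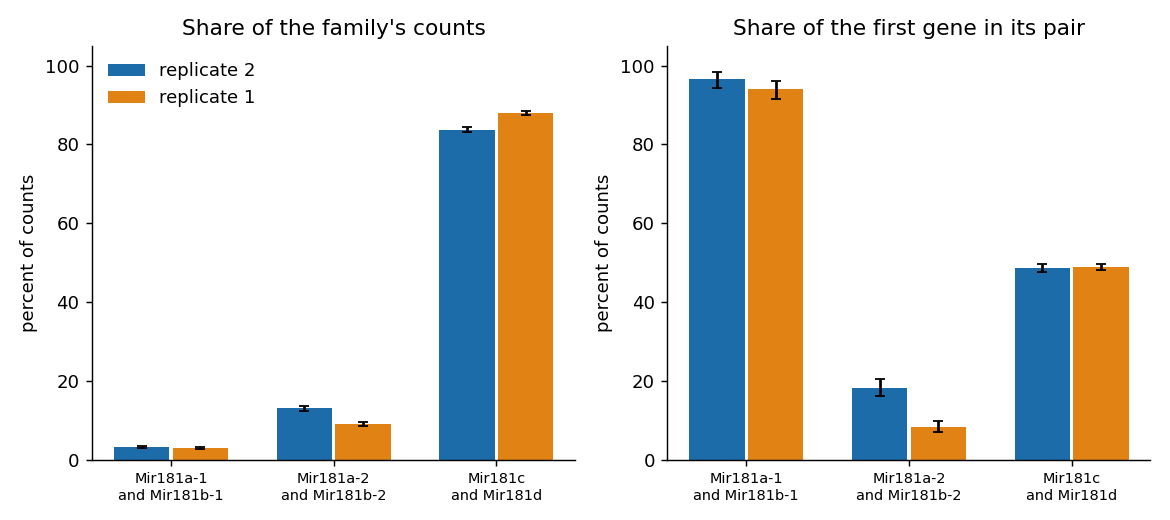
Left, percent of the family's counts held by each pair; right, percent of a pair's counts held by its first-named gene; bars are replicate 2 (blue) and replicate 1 (orange), with exact 95% counting intervals. Mir181c stands at 48.7% and 48.9% of its pair in replicates 2 and 1, while Mir181a-2 stands at 18.2% and 8.37%. Reads with several alignments are left out.

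With a single group, the only comparison between samples is that of the libraries with each other. It asks how steady the family's counts were between them. Genes whose counts summed to 20 or more entered an exact binomial test (two-sided), set against the ratio of TMM-scaled library sizes, and p-values were adjusted by Benjamini-Hochberg over all 426 genes tested. All 6 members passed the minimum. Log2 ratios are replicate 2 over replicate 1.

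Of the 6 genes, 4 differed beyond counting error at an adjusted p under 0.05, against 56.1% of all genes tested. Among them, 2 were higher in replicate 2, against 25.8% of all genes, and 2 were lower there, against 30.3%. The members' median log2 ratio was -0.16, and that of all tested genes was -0.03. The test knows counting error only, so a gene with many counts passes at a small ratio.

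Mir181a-2 had the widest ratio of the 6. It was 2.70-fold higher in replicate 2, at a log2 ratio of 1.44 (interval 1.12 to 1.77, adjusted p = 7.33e-20, exact binomial test). With Mir181a-2 included, 23 of the 426 tested genes (5.40%) had a log2 ratio at least as far from 0. Mir181b-2, its neighbour, was 1.11-fold higher in replicate 2, at a log2 ratio of 0.15 (0.04 to 0.27, adjusted p = 0.0197, exact binomial test). The intervals of these neighbours did not overlap. Both genes have a repeated 5p arm, so their ratios are of placed counts and leave out reads with several alignments. How far the RNA of either gene differs between the libraries was not measured.

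Mir181c and Mir181d were both lower in replicate 2, by nearly the same ratio. Mir181c had a log2 ratio of -0.29 (-0.34 to -0.23, adjusted p = 4.89e-24, exact binomial test) and Mir181d of -0.27 (-0.33 to -0.22, adjusted p = 5.92e-23, exact binomial test). The median absolute log2 ratio of all tested genes was 0.29, so both lay near the middle of the table. The ratio of Mir181a-1 was -0.048 (-0.26 to 0.16, adjusted p = 0.764, exact binomial test), and it turned to 0.055 when scaled by total counts. Mir181b-1 stood at -0.88 (-2.08 to 0.14, adjusted p = 0.117, exact binomial test). For Mir181a-1 a change of more than 1 log2 unit in placed counts lies outside the interval, whereas for Mir181b-1 it does not. Reads with several alignments are missing from both genes, so the change in their RNA was not measured.

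Scaling by total counts in place of TMM raised every log2 ratio by 0.10. Over all genes it moved the split of called genes to 150 higher and 93 lower in replicate 2, against 110 and 129 with TMM. The same 4 members were called under both scalings, with the same signs.

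**Figure D5:**
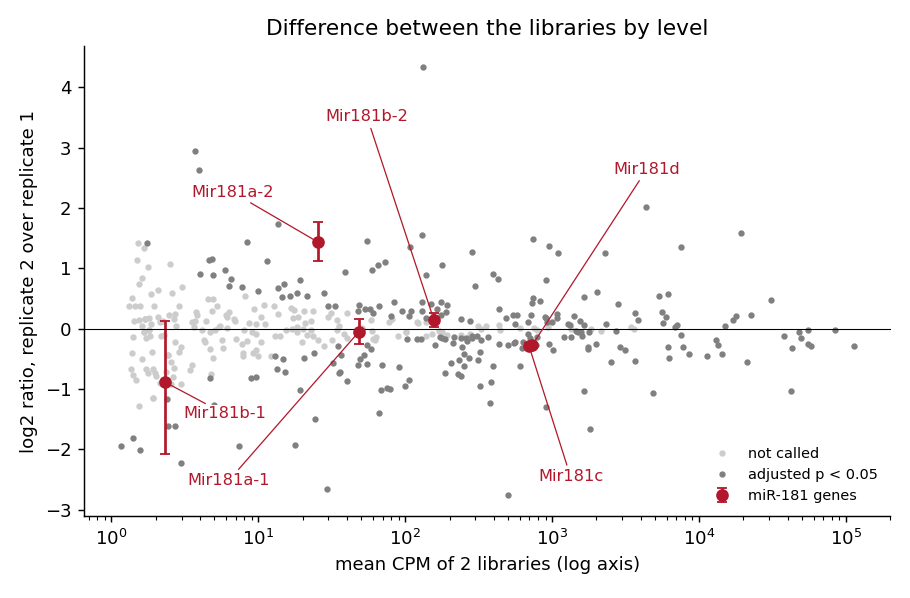
Log2 ratio of replicate 2 over replicate 1 against mean CPM on a log axis, for 426 tested genes (dark grey, adjusted p under 0.05; light grey, not called) and the 6 miR-181 genes in red with exact 95% counting intervals. Mir181a-2 lies at 1.44, Mir181c and Mir181d at -0.29 and -0.27, and the interval of Mir181b-1 spans 0. Reads with several alignments are left out.

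Leukocytes, endothelium and neurons are the cell types in which the family is best known, so microRNAs typical of them are given beside these ratios. In bulk tissue, fewer cells of a type and less RNA per cell cannot be told apart. The leukocyte list summed to 3559 CPM in replicate 2 and 3238 CPM in replicate 1. Of its 8 genes 6 were tested, of which 3 were called higher and 3 lower in replicate 2, and Mir142b was at 0 in both libraries. Over all tested genes, 25.8% were called higher and 30.3% lower there. Mir150, of mature lymphocytes, had 494 CPM in replicate 2 and 368 CPM in replicate 1, while Mir142, found across blood cells, had 231 CPM in replicate 2 and 416 CPM in replicate 1. The endothelial list, nearly all Mir126a, summed to 54325 CPM in replicate 2 and 61679 CPM in replicate 1. The log2 ratio of Mir126a was -0.29. Mir126b was also lower in replicate 2, but had only 3 counts there and 17 in replicate 1, so the list rests on Mir126a. The neural list summed to 671 CPM in replicate 2 and 876 CPM in replicate 1. Of its 16 genes 8 were tested. Of these, 5 were called lower and none higher in replicate 2, against 30.3% and 25.8% of all tested genes. The log2 ratios of the 5 ran from -0.16 (Mir129-2) to -2.66 (Mir153). Of the 5, Mir128-1, Mir129-2 and Mir138-2 have a mature arm repeated in another gene, as have the uncalled Mir129-1, Mir138-1 and Mir219a-1. For Mir137 and Mir153 no repeat was found. Mir137 had 324 CPM in replicate 2 and 464 CPM in replicate 1. Mir153 had 8.52 CPM in replicate 2 and 50.4 CPM in replicate 1. The genes of miR-9 and miR-124, 6 in all, were at 0. Reads with several alignments are not counted at any gene. How many of them belong to these 6 genes, or to the tested neural genes with a repeated arm, was not measured. The part of these cell types in the miR-181 ratios was not tested.

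On chromosome 8, Mir23a starts 29556 bases from Mir181c, on the other strand, and opens a cluster with Mir27a and Mir24-2. The cluster's genes did not share the ratio of Mir181c and Mir181d. Mir23a had 28913 CPM in replicate 2 and 55297 CPM in replicate 1, a log2 ratio of -1.04. Mir27a had 993 CPM in replicate 2 and 855 CPM in replicate 1, a log2 ratio of 0.11, and Mir24-2 had 233 CPM in replicate 2 and 305 CPM in replicate 1, a log2 ratio of -0.49. All 3 were called, against 56.1% of all tested genes, and 1 of them was higher in replicate 2. Mir24-2 has a mature arm that is repeated in another gene.

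Part of the placed counts lay at genes with a repeated arm. Reads that could be placed at several genes are missing from them, and the shares below describe the placed counts only and do not measure how much of a family's RNA comes from those genes. The 4 miR-181 genes with a repeated arm held 16.2% of the family's counts in replicate 2 (15.5 to 16.9) and 12.0% in replicate 1 (11.5 to 12.5). In the miR-29 family, 2 of 4 genes have a repeated arm, and they held 1.45% in replicate 2 (1.34 to 1.57) and 1.23% in replicate 1 (1.14 to 1.31). In the miR-30 family, 2 of 6 genes have one and they held 2.04% in replicate 2 (1.96 to 2.11) and 2.76% in replicate 1 (2.67 to 2.84). Mir30b and Mir30d, which had no mature entry and were not classified, held 52.8% of that family's counts in replicate 2 and 26.2% in replicate 1, so the families are not ranked. The miR-29 genes summed to 6602 CPM in replicate 2 and 7446 CPM in replicate 1, with 2 of 4 lower in replicate 2 and 2 not called. The miR-30 genes summed to 21274 CPM in replicate 2 and 15815 CPM in replicate 1, with 3 of 6 higher and 2 lower in replicate 2. Over all tested genes, 25.8% were called higher and 30.3% lower there.

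For each member, the genes outside the family nearest to it in level were found. The distance was taken in log2(CPM + 1) over the 2 libraries, which are 2 points only. Other members were left out of this search, also where they lay close, as Mir181c and Mir181d do to each other. Mir181d was nearest to Mir330 (distance 0.11) and Mirlet7c-1 (0.12), and Mir181c to Mirlet7c-1 (0.10) and Mir203 (0.15). Mirlet7c-1, of the let-7 family, had 688 CPM in replicate 2 and 713 CPM in replicate 1. Mir181b-2 was nearest to Mir3068 (0.15) and Mir1306 (0.18), and Mir181a-1 to Mir679 (0.09) and Mir345 (0.11). Mir181b-1 was nearest to Mir294 (0.09) and Mir5133 (0.12). Mir181a-2 had the most distant neighbours, Mir486 (0.58) and Mir6236 (0.61). Mir6236 had 26.3 CPM in replicate 2 and 16.7 CPM in replicate 1.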

How the data were processed

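The deposited tables hold raw read counts per microRNA gene, which the authors made on mm10 with the GENCODE M21 annotation, per the file descriptions. Per the labels' protocols, reads went through adapter trimming; inserts were below 30 (taken as nt). The aligner, its mismatch limit and the counting tool were not given in the sources used here. The 3 columns were read from their layout as either strand, the strand of the gene (used here) and the opposite strand. The first 4 rows name no gene and were left out of library sizes; they held 54.6% of reads in replicate 2 and 51.2% in replicate 1, most of them with several alignments or unmapped.

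CPM, exact intervals (scipy 1.17.1) and the binomial test were computed from these counts, with TMM factors from edgeR 4.0.16 and, as an alternative, DESeq2 1.42.0 size factors. Log2 ratios had 0.5 counts added. The test was tested on simulated data with counting error only. No molecular identifiers are stated. Arms were matched by symbol to RefSeq tables, which held mature sequences for all 6 genes and hairpins for 5, all but Mir181c. Members and lists were chosen with earlier results of these data known. Genes named are members, list genes, genes overlapping a member and, for each member, the 2 genes outside the family nearest in level.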

Additional observations from a re-analysis of the deposited data

How the results depend on the processing

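Of 87 values under alternative settings, 76 kept their direction, their side of the threshold or their size within the spread between replicates. Some of the 76 were bound to do so. With 2 libraries, a level or pair share from either library alone always lies within the SD around their mean. Pair shares from reads on either strand rest on the same counts. The 76 of 87 is therefore no measure of how robust the results are. Over all reads of a library in place of the counts on genes, mean levels were 22.8 CPM for Mir181a-1, 11.8 for Mir181a-2 (within its wide SD), 1.10 for Mir181b-1, 73.4 for Mir181b-2, 328 for Mir181c, 345 for Mir181d and 782 for the family, by construction of the larger denominator. From reads on either strand they were 53.3 CPM for Mir181a-1, 765 for Mir181c, 804 for Mir181d and 1824 for the family; the members' counts were the same in that column and its totals are smaller. Scaled by total counts, the log2 ratio of Mir181a-1 was 0.055, the sign opposite to that with TMM, and uncalled under both. The number of genes that differed between the libraries ran from 217 (reads on either strand) to 243 (total counts), but the share of genes tested that were called, 56.1% as reported, was 28.5% of 818 genes with no minimum and 71.4% of 311 at a minimum of 100 counts. Leaving out a library leaves the other's value, given in the report. Mir181b-1 was not tested at a minimum of 100 counts. No paired analysis was possible because both libraries belong to 1 group. Among the 6 genes, depth limits Mir181b-1 most, at 11 and 27 counts in replicates 2 and 1.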

Other observations

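Repeated mature arms were counted over the whole table. Of the 2202 microRNA genes, those that matched a mature entry by symbol were classed. Of these, 94 had an arm that is identical in another gene among all mature entries, and for 924 none was found. Entries are missing for some genes, such as Mir30b and Mir30d, and may be missing for single arms of others. Some of the 924 may therefore have a repeat that was not seen. Of the 94, 47 had at least 20 counts over both libraries, at a median of 48.4 CPM. Of the 924, 332 (35.9%) did, at a median of 54.7 CPM. A log2 ratio beyond 1 between the libraries was found in 12.8% of those 47 genes and 13.0% of those 332. Mir181a-2 is 1 of the 6 such genes with a repeated arm.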
